A study of Mus musculus with 10 samples.

Results

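Surface ectoderm and epithelial genes were followed in the tail bud of the mouse embryo, the posterior growth zone that adds tissue to the lengthening tail. The group is a list of 44 gene symbols, chosen by name: keratins, desmosome, cadherin, claudin, laminin and integrin genes, epithelial transcription and splicing factors, and epithelial proteases with their inhibitors. All 44 are among the 38720 symbols counted, and 43 of them are among the 16340 genes with enough counts to test. Desmoglein 3 (Dsg3) was left out by the filter on low counts, with raw counts of 2, 2, 0 and 1 in the Lin28a-induced, 6, 4 and 2 in the no-Cre and 12, 4 and 6 in the wild-type libraries. The lowest level of any tested member in any library was 1.10 CPM (counts scaled to library size), for Krt15.

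RNA from microdissected tail buds at E12.5, in midgestation, was sequenced in 10 libraries of 3 groups. Replicates 2, 3, 4 and 5 (n = 4) make up the Lin28a-induced group. These embryos carried TRE-Lin28a, a Lin28a transgene that doxycycline switches on, with the Cre-activated rtTA allele RLSL-rtTA and with FoxD1-Cre, and they were given doxycycline. The no-Cre group (replicates 6, 7 and 8, n = 3) carried TRE-Lin28a and RLSL-rtTA without Cre and was also given doxycycline. The wild-type group (replicates 1, 2 and 3, n = 3) is labelled with no transgene and no doxycycline, so transgenes, doxycycline, any difference of strain and any difference in handling cannot be told apart in comparisons with it. FoxD1-Cre confines rtTA to cells with a history of Foxd1 expression, and the labels do not say which tail bud cells those are or whether libraries came from separate embryos. P-values then measure the spread between these libraries, which may in part be technical.

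The surface ectoderm is the outer epithelial sheet of the embryo, from which the epidermis forms. Its cells are held together by desmosomes, adherens junctions and tight junctions, are stiffened by keratin filaments and rest on a laminin basement membrane to which integrins bind. Transcription factors of the Trp63, Grhl, Ovol and Tfap2 families drive this epithelial programme. In the tail bud the sheet covers the mesenchyme and neural tissue, and at the ventral tip it thickens into the ventral ectodermal ridge, a signalling epithelium. Lin28a, the induced protein, binds RNA and blocks the maturation of let-7 microRNAs. These microRNAs repress transcripts that match their seed, bases 2 to 8 of the mature strand.

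Library totals ran from 21762668 to 39517946 counts, and the wild-type libraries were the 3 shallowest. Lin28a itself measured 605 to 750.3 CPM in the Lin28a-induced, 2.64 to 5.03 CPM in the no-Cre and 4.45 to 6.16 CPM in the wild-type libraries, as labelled. Xist and Ddx3y showed 2 female libraries, replicate 5 of the Lin28a-induced and replicate 7 of the no-Cre group, and 8 male ones. The wild-type libraries stood apart in mitochondrially encoded transcripts, which summed to 4482 to 6802 CPM in the Lin28a-induced, 5327 to 6130.5 CPM in the no-Cre and 18516 to 26434 CPM in the wild-type libraries.

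The let-7 family members share 1 seed, GAGGUAG, shown in capitals in the mature sequence of let-7a from RefSeq, with the matches in 3′ untranslated regions of epithelial genes that can be shown (site letters CTACCTC in capitals, GRCm38).
mmu-let-7a-5p: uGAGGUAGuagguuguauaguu
Pkp1 (chr1:135872298-135872324, minus strand): gtgggattctgcctcCTACCTCacctc
Spint1 (chr2:119249032-119249058, plus strand): gggaccagactcttcCTACCTCtttcc
A match of 7 bases was found in an annotated 3′ untranslated region of 4 of the 44 epithelial genes (9.09%), namely Dsg2, Dsg3, Pkp1 and Spint1, against 1536 of 13595 tested genes with such a region (11.3%). A match is a description of letters and not a measured site.

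Sequence upstream of the start was in the RefSeq promoter table for 21 of the 44 genes. It was searched, over 250 bases on both strands, for the core letters AACCNGTT of Grhl factors and GCCNNNGGC of Tfap2 factors, since both families are themselves members. The Grhl letters occurred in 2 of the 21 (9.52%), Rab25 and Sfn, against 1.95% of 11196 tested genes and 2.0% of 27025 promoters in all. The Tfap2 letters occurred in 7 of the 21 (33.3%), Dsp, Fermt1, Grhl1, Krt18, Krt7, Spint1 and Spint2, against 24.0% of tested genes and 15.4% of all promoters. No member held both. The windows below, from GRCm38.p6, show both Grhl matches and the Tfap2 matches of Dsp, Krt7 and Spint1, which had among the lowest adjusted p-values against wild type, with the matched letters in capitals. Of the 2 Krt7 matches, the one nearer the start is shown, and the Sfn match reads AACCNGTT on the opposite strand.
Rab25 (chr3:88548354-88548401, minus strand): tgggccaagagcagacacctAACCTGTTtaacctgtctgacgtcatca
Sfn (chr4:133602325-133602372, minus strand): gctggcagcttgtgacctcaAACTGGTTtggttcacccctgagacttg
Dsp (chr13:38151199-38151247, plus strand): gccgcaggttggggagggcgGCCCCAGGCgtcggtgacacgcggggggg
Krt7 (chr15:101412313-101412361, plus strand): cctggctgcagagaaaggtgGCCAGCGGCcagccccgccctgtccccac
Spint1 (chr2:119237293-119237341, plus strand): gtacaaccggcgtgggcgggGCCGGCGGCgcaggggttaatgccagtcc
Rab25, Sfn, Dsp, Krt7 and Spint1 were all lower in both transgenic groups than in wild type (values below). So were 42 of the 43 tested members, so being lower does not set genes with a match apart. Whether any factor binds these windows was not measured.

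Per kilobase of exon, the scale on which genes can be compared, the epithelial genes with the highest wild-type levels were Cldn6 (91.8 CPM per kb), Krt5 (86.4), Sfn (73.2), Epcam (63.8) and Perp (60.2). In the Lin28a-induced libraries Cldn6 was again the first of the 44, at 43.97 CPM per kb, and in the no-Cre libraries too, at 42.9. Krt5 ranked 2 in wild type but 10 in both transgenic groups, at 15.6 and 17.0 CPM per kb. Summed over the 44 genes, the level was 1273 to 1448 CPM in the Lin28a-induced, 1333 to 1416 CPM in the no-Cre and 3122 to 3852 CPM in the wild-type libraries. As a share of all counts these sums averaged 0.137% ± 0.00778 (SD, n = 4), 0.136% ± 0.00417 (SD, n = 3) and 0.342% ± 0.0436 (SD, n = 3). The transgenic groups overlapped each other, and every wild-type library lay above both. The surface ectoderm genes Krt5, Krt14 and Trp63 were detected in all 10 libraries, with lowest levels of 31.4, 11.3 and 36.4 CPM. So was Cdh1, a gene of epithelia in general, with a lowest level of 70.9 CPM.

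**Figure D1:**
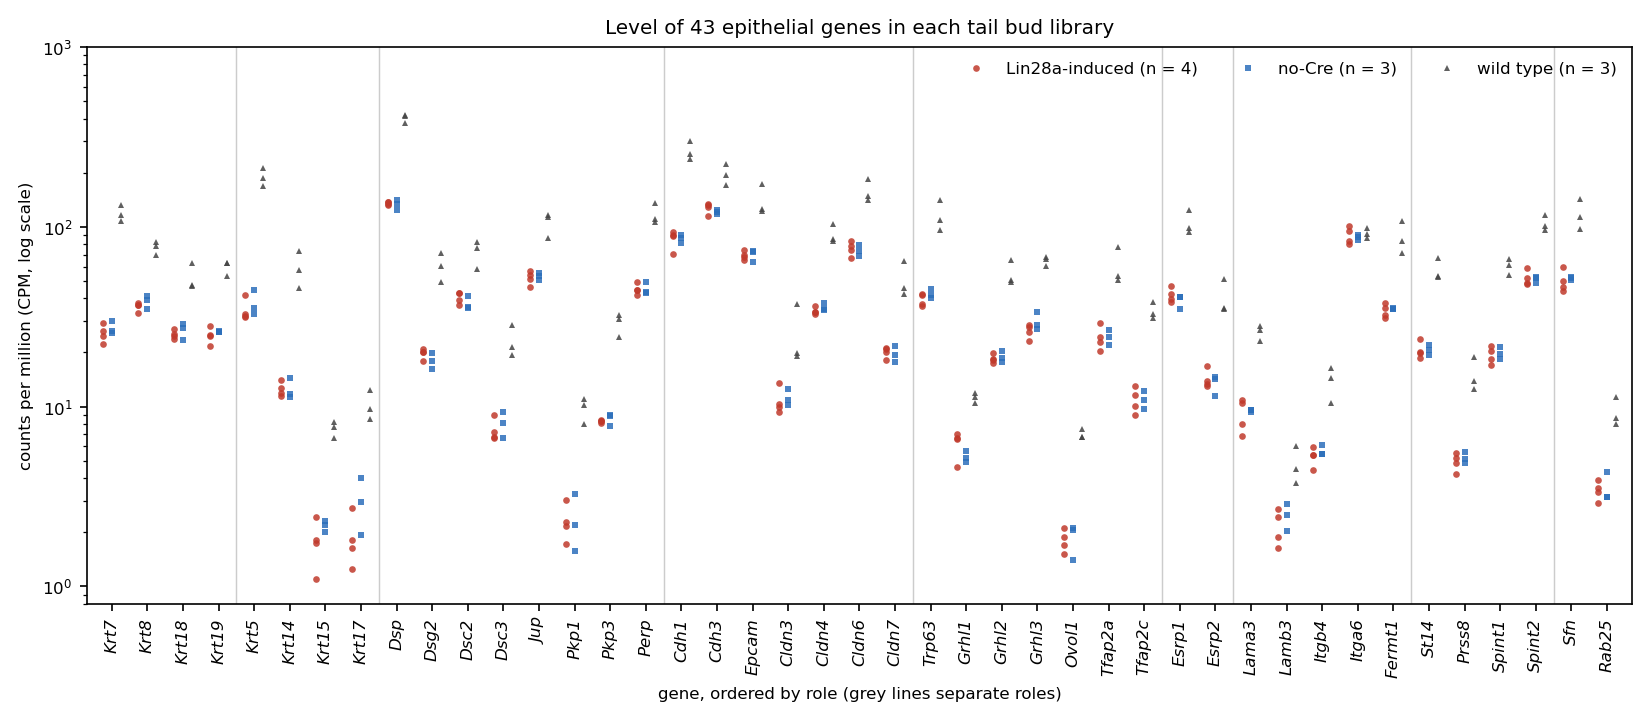
Level of each of the 43 tested epithelial genes in each library, in CPM on a log scale, with genes ordered by role along the x axis, circles for Lin28a-induced, squares for no-Cre and triangles for wild-type libraries. Circles and squares lie together, and the triangles lie above both for 42 of the 43 genes, with Itga6 the exception.

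The first question was whether inducing Lin28a changed these genes relative to tail buds with the same transgenes, the same doxycycline and no Cre. No epithelial gene was called: 0 of 43 were higher and 0 lower at an adjusted p under 0.05 (edgeR's quasi-likelihood test, Benjamini-Hochberg over 16340 genes), beside 1.76% higher and 1.15% lower among all tested genes, 2.91% in either direction. DESeq2 and limma-voom also called 0. At an unadjusted p under 0.05 there was 1 of 43, Krt17, beside 16.3% of all tested genes. The median log2 fold change of the 43 was -0.04, and that of all tested genes -0.00082. The Lin28a-induced libraries overlapped the no-Cre libraries for all 43 genes, whereas 23.4% of all genes had every Lin28a-induced library below or every one above the no-Cre range.

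The intervals show the sizes of change that these libraries allow for each gene taken singly. Like the p-values, they rest on the spread between these libraries. The 95% confidence interval of the log2 fold change lay within ±0.5 for 37 of the 43 genes and within ±1 for 42, and the median distance from the estimate to either bound was 0.24. Dsp, the plakin that ties keratin filaments to the desmosome, had the difference 0.02 ± 0.06 (adjusted p = 0.926) with an interval of -0.10 to 0.14. For Cdh1 (E-cadherin), the main adhesion receptor of epithelia, the difference was 0.00 ± 0.10 (adjusted p = 0.9995) with an interval of -0.21 to 0.22. Trp63, the master regulator of stratified epithelia, differed by -0.10 ± 0.11 (adjusted p = 0.726). Perp and Sfn, both known also as targets of p53, differed by 0.00 ± 0.09 (adjusted p = 0.9999) and -0.05 ± 0.13 (adjusted p = 0.910). Perp and Sfn, unlike Dsp, Cdh1 and Trp63, had the highest level per kb in their role, averaged over the 3 groups. For the other genes with the highest level in their role, the difference was -0.09 ± 0.07 (adjusted p = 0.603) for Krt8, -0.12 ± 0.13 (adjusted p = 0.725) for Krt5 and 0.03 ± 0.10 (adjusted p = 0.911) for Cldn6. It was -0.17 ± 0.09 (adjusted p = 0.373) for Grhl3, 0.10 ± 0.10 (adjusted p = 0.712) for Esrp1, 0.04 ± 0.08 (adjusted p = 0.866) for Itga6 and 0.03 ± 0.08 (adjusted p = 0.917) for Spint2. The per-library levels of these genes, given with their roles below, overlapped between the groups.

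The extremes of the list were not past the threshold. Krt17, a keratin of activated and embryonic epidermis, was at 2.74, 1.63, 1.82 and 1.25 CPM in the Lin28a-induced and 2.95, 4.02 and 1.92 CPM in the no-Cre libraries, and the ranges overlapped. Its log2 fold change was -0.69 ± 0.28 (adjusted p = 0.237), with an unadjusted p of 0.0282 and an interval of -1.30 to -0.09, the only one that reached beyond -1. Without no-Cre replicate 7 it was -0.42 (adjusted p = 0.664), and without Lin28a-induced replicate 2 it was -0.94 (adjusted p = 0.109). At the other end Grhl1, a grainyhead factor that activates desmosomal cadherin genes, had 0.25 ± 0.15 (adjusted p = 0.443). Genes with a let-7 seed match showed 0.14 ± 0.11 (adjusted p = 0.605) for Dsg2, -0.04 ± 0.25 (adjusted p = 0.965) for Pkp1 and -0.03 ± 0.10 (adjusted p = 0.922) for Spint1. For 20 tested members that share under 1% of their 32-base words with another gene, 0 were called. Among the remaining members, counts of Krt8 (35.5% of words shared, mostly with Krt8-ps), Krt14 (27.4%, mostly with Krt16), Sfn (26.1%), Ovol1 (20.5%), Krt5 (15.4%) and Krt18 (10.4%), with Krt17 and Tfap2a between the last 2, are less certain, because the handling of reads with several alignments is not given in the sources used here.

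Against wild type the same genes stood far lower in both transgenic groups. In the Lin28a-induced libraries 42 of 43 were lower and 0 higher, beside 25.0% lower and 24.3% higher among all tested genes. In the no-Cre libraries 42 of 43 were lower and 0 higher, beside 21.4% lower and 21.0% higher. The median log2 fold change was -1.42 with Lin28a induced (2.68-fold lower) and -1.39 without Cre (2.63-fold lower), against -0.02 in both comparisons over all genes. Both comparisons use the same wild-type libraries, so they are not independent. A fall of at least 2-fold that passed the test was found for 39 members with Lin28a induced (7.06% of all genes) and for 36 without Cre (6.73%). In each comparison 42 members had every transgenic library below every wild-type library, beside 24.6% and 26.2% of all genes. In bulk tissue, fewer epithelial cells and less RNA per epithelial cell cannot be told apart.

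**Figure D2:**
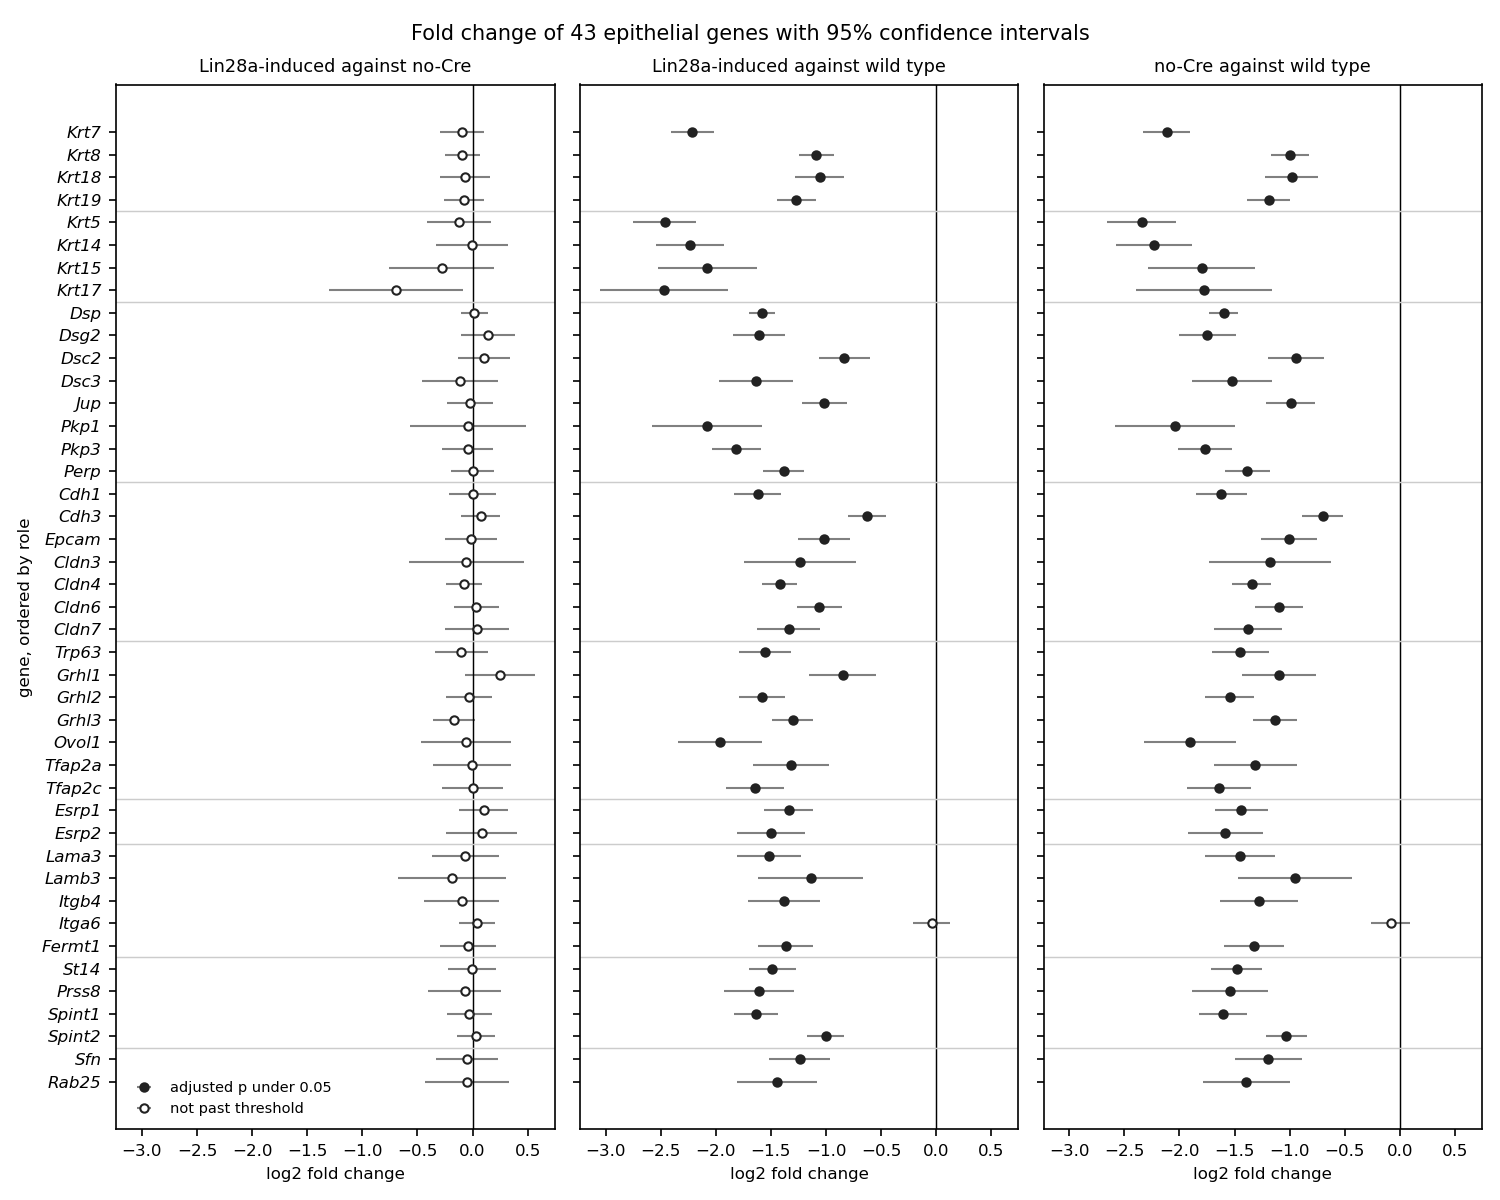
Log2 fold change of each tested epithelial gene (points) with its 95% confidence interval (lines) in the 3 comparisons, with genes ordered by role from top to bottom, filled where the adjusted p was under 0.05. Points lie around 0 for Lin28a-induced against no-Cre and between -0.63 and -2.47 for the 42 genes called against wild type.

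In what follows, a pair of values gives the log2 fold change against wild type with Lin28a induced first and without Cre second. Keratins build the intermediate filaments of epithelia, and the 4 simple keratins pair as Krt7 or Krt8 with Krt18 or Krt19. All 4 fell in both comparisons, with a median of -1.18 in the Lin28a-induced and -1.09 in the no-Cre libraries. Krt7 stood at 29.0, 24.7, 22.3 and 26.2 CPM in the Lin28a-induced libraries, at 26.3, 29.8 and 25.8 CPM in the no-Cre libraries and at 108, 132 and 116 CPM in wild type. The ranges of the transgenic groups overlapped and lay far below wild type. Krt7 was lower than in wild type by a log2 fold change of -2.21 ± 0.09 (adjusted p = 9.12e-10) in the Lin28a-induced group and -2.12 ± 0.10 (adjusted p = 4.56e-09) in the no-Cre group. Krt8, the highest of the 4 per kb, marks simple epithelia and the embryo's outer layer. In wild type, Krt8 measured 70.0, 78.6 and 81.9 CPM, against 37.6, 33.2, 36.7 and 36.9 CPM in the Lin28a-induced and 41.3, 39.3 and 34.9 CPM in the no-Cre libraries. For Krt8, the log2 fold change against wild type was -1.09 ± 0.07 (adjusted p = 9.93e-08) with Lin28a induced and -0.996 ± 0.08 (adjusted p = 7.10e-07) without Cre. Levels of Krt19 were 28.0, 21.7, 24.8 and 25.0 CPM with Lin28a induced, 26.1, 26.1 and 26.4 CPM without Cre and 53.6, 62.9 and 63.2 CPM in wild type. Here too no transgenic library reached the wild-type range. The fall in Krt19 had a log2 fold change of -1.27 ± 0.08 (adjusted p = 8.51e-08) in Lin28a-induced and -1.19 ± 0.09 (adjusted p = 4.80e-07) in no-Cre tail buds. Krt18, whose gene lies beside Krt8 on chromosome 15 (chr15:102028180-102032027, GRCm38), fell by 1.06 and 0.98 on the log2 scale. Krt7 had the largest fold change of the 4, and its 95% intervals (-2.41 to -2.02 and -2.33 to -1.90) did not meet theirs.

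Stratified keratins mark the basal layer from which the epidermis is built, and they had the largest median fall of any role: 4 of 4 fell in both comparisons, with a median of -2.35 in the Lin28a-induced and -2.01 in the no-Cre libraries. Krt5, the basal type II keratin (chr15:101707070-101712898), was the highest of the 4 per kb. Krt5 stood at 31.4, 32.6, 31.9 and 41.6 CPM in the Lin28a-induced libraries, at 35.3, 44.3 and 32.7 CPM in the no-Cre libraries and at 169, 213 and 187 CPM in wild type. For Krt5, the log2 fold change against wild type was -2.46 ± 0.13 (adjusted p = 1.83e-07) with Lin28a induced and -2.34 ± 0.14 (adjusted p = 8.34e-07) without Cre. Its partner Krt14 averaged 12.48 ± 1.15 (SD, n = 4), 12.51 ± 1.72 (SD, n = 3) and 58.7 ± 13.6 CPM (SD, n = 3) in the Lin28a-induced, no-Cre and wild-type groups, with log2 fold changes of -2.23 and -2.23. Krt15, another basal keratin, had -2.08 and -1.80. Krt17 was low everywhere, at 9.66, 12.4 and 8.54 CPM in wild type, and its log2 fold changes of -2.47 ± 0.27 and -1.78 ± 0.28 are the least precise of the 4.

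Desmosomes join neighbouring cells and anchor keratin, and 8 of their 8 tested genes fell in both comparisons, with a median of -1.59 in the Lin28a-induced and -1.56 in the no-Cre libraries. In wild type, Dsp measured 379, 420.0 and 412 CPM, against 133, 137, 133 and 137 CPM in the Lin28a-induced and 125, 141 and 135 CPM in the no-Cre libraries. Dsp was lower than in wild type by a log2 fold change of -1.58 ± 0.06 (adjusted p = 1.23e-10) in the Lin28a-induced group and -1.60 ± 0.06 (adjusted p = 3.92e-10) in the no-Cre group. Dsp had the lowest adjusted p-value of all members in both comparisons. Perp, a tetraspan protein of desmosomes that depends on Trp63, was the highest of them per kb. Levels of Perp were 49.5, 41.7, 44.3 and 44.5 CPM with Lin28a induced, 42.7, 49.1 and 43.1 CPM without Cre and 106, 136 and 109.9 CPM in wild type. The fall in Perp had a log2 fold change of -1.39 ± 0.09 (adjusted p = 8.29e-08) in Lin28a-induced and -1.39 ± 0.10 (adjusted p = 2.72e-07) in no-Cre tail buds. Pkp3 is a plakophilin of the desmosomal plaque. Pkp3 stood at 8.12, 8.27, 8.31 and 8.44 CPM in the Lin28a-induced libraries, at 7.77, 8.91 and 8.99 CPM in the no-Cre libraries and at 24.3, 32.3 and 30.8 CPM in wild type. For Pkp3, the log2 fold change against wild type was -1.81 ± 0.10 (adjusted p = 2.10e-08) with Lin28a induced and -1.77 ± 0.11 (adjusted p = 9.22e-08) without Cre. Dsg2 is the desmoglein of simple and early epithelia. In wild type, Dsg2 measured 49.3, 71.3 and 60.1 CPM, against 20.1, 18.03, 20.04 and 21.0 CPM in the Lin28a-induced and 16.2, 19.8 and 17.8 CPM in the no-Cre libraries. Dsg2 was lower than in wild type by a log2 fold change of -1.61 ± 0.11 (adjusted p = 1.58e-07) in the Lin28a-induced group and -1.75 ± 0.12 (adjusted p = 2.72e-07) in the no-Cre group. In each of these genes the wild-type libraries lay above all 7 others. The smallest fall was in the desmocollin Dsc2 (-0.84 and -0.94), and the largest in Pkp1, a plakophilin of stratified epithelia (-2.08 and -2.04). Jup, which desmosomes share with adherens junctions, had -1.01 and -0.99.

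Of the adherens and tight junction genes 7 of 7 fell in both comparisons, with a median of -1.24 in the Lin28a-induced and -1.18 in the no-Cre libraries. Levels of Cdh1 were 90.6, 70.9, 88.9 and 94.0 CPM with Lin28a induced, 86.7, 90.03 and 81.4 CPM without Cre and 255, 301 and 237 CPM in wild type. For Cdh1, the log2 fold change against wild type was -1.62 ± 0.10 (adjusted p = 1.10e-07) with Lin28a induced and -1.62 ± 0.11 (adjusted p = 3.43e-07) without Cre. P-cadherin (Cdh3), which basal epidermal cells also carry, had the smallest fall of all 42 genes called with Lin28a induced and without Cre (-0.63 and -0.70), from 197 ± 26.4 CPM in wild type to 127 ± 8.92 and 121 ± 3.54 CPM (means ± SD, n = 3, 4 and 3). Claudins seal tight junctions. Cldn6, a claudin of embryonic epithelia, led the group per kb. Cldn6 stood at 82.9, 67.1, 78.2 and 74.5 CPM in the Lin28a-induced libraries, at 79.2, 73.5 and 68.8 CPM in the no-Cre libraries and at 148, 185 and 141 CPM in wild type. The fall in Cldn6 had a log2 fold change of -1.06 ± 0.09 (adjusted p = 2.21e-06) in Lin28a-induced and -1.10 ± 0.10 (adjusted p = 5.04e-06) in no-Cre tail buds. In wild type, Cldn4 measured 83.5, 103 and 85.8 CPM, against 36.5, 33.4, 32.5 and 33.5 CPM in the Lin28a-induced and 37.8, 35.1 and 34.5 CPM in the no-Cre libraries. Cldn4 was lower than in wild type by a log2 fold change of -1.42 ± 0.07 (adjusted p = 8.46e-09) in the Lin28a-induced group and -1.34 ± 0.08 (adjusted p = 4.66e-08) in the no-Cre group. The other claudins were lower too, Cldn3 by -1.24 and -1.18 and Cldn7 by -1.34 and -1.38. Epcam, an epithelial adhesion protein, had -1.02 and -1.01.

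The epithelial transcription factors fell as a class, 7 of 7 in both comparisons, with a median of -1.55 in the Lin28a-induced and -1.45 in the no-Cre libraries. Grhl2 and Grhl3 are grainyhead factors that act on junction genes and are known for their part in closing the neural tube. Levels of Grhl2 were 19.9, 18.1, 18.4 and 17.4 CPM with Lin28a induced, 20.3, 17.6 and 18.5 CPM without Cre and 49.2, 65.1 and 50.5 CPM in wild type. The fall in Grhl2 had a log2 fold change of -1.58 ± 0.10 (adjusted p = 4.19e-08) in Lin28a-induced and -1.55 ± 0.11 (adjusted p = 1.64e-07) in no-Cre tail buds. Grhl3 stood at 28.5, 26.1, 27.6 and 23.2 CPM in the Lin28a-induced libraries, at 26.8, 33.5 and 28.4 CPM in the no-Cre libraries and at 66.2, 67.9 and 60.7 CPM in wild type. Grhl3 was lower than in wild type by a log2 fold change of -1.30 ± 0.09 (adjusted p = 8.59e-08) in the Lin28a-induced group and -1.14 ± 0.09 (adjusted p = 9.67e-07) in the no-Cre group. Neither overlapped with wild type. Grhl1 had a smaller fall (-0.85 and -1.10). Trp63 had -1.55 and -1.45, from 115 ± 23.0 CPM (SD, n = 3) in wild type to 39.3 ± 2.85 (SD, n = 4) and 42.3 ± 2.45 CPM (SD, n = 3). Ovol1, a zinc finger factor of epidermal differentiation, fell by 1.96 and 1.90, with the uncertainty of its shared sequence given above. The early ectoderm factors Tfap2a and Tfap2c, which neural crest cells also use, both fell, Tfap2a by -1.32 and -1.31 and Tfap2c by -1.64 and -1.64. Esrp1 and Esrp2 direct epithelial splice choices, and both fell in both comparisons. In wild type, Esrp1 measured 98.8, 124 and 93.0 CPM, against 47.0, 38.1, 39.5 and 42.0 CPM in the Lin28a-induced and 40.8, 40.8 and 34.9 CPM in the no-Cre libraries. For Esrp1, the log2 fold change against wild type was -1.34 ± 0.10 (adjusted p = 7.57e-07) with Lin28a induced and -1.44 ± 0.11 (adjusted p = 1.39e-06) without Cre. Esrp2 had -1.503 and -1.58.

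Basement membrane and hemidesmosome genes held the 1 exception. Itga6 (integrin alpha 6), the laminin receptor subunit that pairs with Itgb4 in epidermal hemidesmosomes and with Itgb1 in many other cells, was the highest of the 5 per kb in both transgenic groups and in the mean over groups, though not in wild type (10.2 CPM per kb, against 15.4 for Fermt1). Itga6 stood at 83.6, 80.0, 94.1 and 102 CPM in the Lin28a-induced libraries, at 88.0, 83.9 and 90.2 CPM in the no-Cre libraries and at 98.8, 91.5 and 87.1 CPM in wild type. The 3 groups overlapped. Against wild type it had -0.04 ± 0.08 (adjusted p = 0.675, interval -0.21 to 0.12) with Lin28a induced and -0.08 ± 0.08 (adjusted p = 0.442, interval -0.26 to 0.09) without Cre. Its partner Itgb4, which epithelia use more narrowly, fell by 1.38 and 1.28 on the log2 scale, with 10.4, 16.4 and 14.4 CPM in wild type. Of the laminin chains, Lama3 had -1.52 and -1.45 and Lamb3 -1.14 and -0.95. Fermt1, the kindlin that activates integrins in epithelia, had -1.37 and -1.32. Endothelial and neural cells are also known to express Itga6. All 8 endothelial marker genes fixed for the comparison were higher than wild type in both transgenic groups. Over all genes 24.3% were higher with Lin28a induced and 21.0% without Cre. The endothelial levels summed to 283 to 391.5 CPM in the Lin28a-induced, 299 to 335 CPM in the no-Cre and 68.9 to 143 CPM in the wild-type libraries. Of 6 tested neural tube markers 2 were higher and 2 lower with Lin28a induced, and 3 higher and 1 lower without Cre. The part of either cell type in the Itga6 value was not tested.

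Surface proteases and their inhibitors form a matched set in epithelia: St14 (matriptase) and Prss8 (prostasin) cut at the cell surface, and Spint1 and Spint2 inhibit them. All 4 fell in both comparisons, with a median of -1.55 in the Lin28a-induced and -1.51 in the no-Cre libraries. Levels of St14 were 23.8, 18.6, 19.97 and 20.1 CPM with Lin28a induced, 21.9, 20.6 and 19.4 CPM without Cre and 53.3, 67.3 and 52.7 CPM in wild type. St14 was lower than in wild type by a log2 fold change of -1.49 ± 0.10 (adjusted p = 9.81e-08) in the Lin28a-induced group and -1.48 ± 0.11 (adjusted p = 3.30e-07) in the no-Cre group. In wild type, Spint1 measured 53.9, 66.3 and 61.1 CPM, against 21.8, 17.1, 18.5 and 20.4 CPM in the Lin28a-induced and 19.7, 21.4 and 18.5 CPM in the no-Cre libraries. The fall in Spint1 had a log2 fold change of -1.64 ± 0.09 (adjusted p = 1.87e-08) in Lin28a-induced and -1.61 ± 0.10 (adjusted p = 7.58e-08) in no-Cre tail buds. Spint2 stood at 59.1, 48.0, 52.0 and 48.5 CPM in the Lin28a-induced libraries, at 52.3, 51.7 and 48.7 CPM in the no-Cre libraries and at 95.5, 116 and 101 CPM in wild type. For Spint2, the log2 fold change against wild type was -1.003 ± 0.08 (adjusted p = 4.37e-07) with Lin28a induced and -1.03 ± 0.09 (adjusted p = 1.13e-06) without Cre. Protease and inhibitor alike were lower in all 7 transgenic libraries than in any wild-type one. Prss8 had -1.61 and -1.54. Of the last 2 members, Sfn (14-3-3 sigma) binds keratin and restrains the cell cycle in epidermis. Levels of Sfn were 59.6, 44.1, 49.9 and 46.5 CPM with Lin28a induced, 50.6, 52.0 and 52.3 CPM without Cre and 97.7, 143 and 114 CPM in wild type. The fall in Sfn had a log2 fold change of -1.24 ± 0.13 (adjusted p = 1.87e-05) in Lin28a-induced and -1.19 ± 0.14 (adjusted p = 6.40e-05) in no-Cre tail buds. Rab25, a small GTPase of apical recycling in epithelia, had -1.45 and -1.39.

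**Figure D3:**
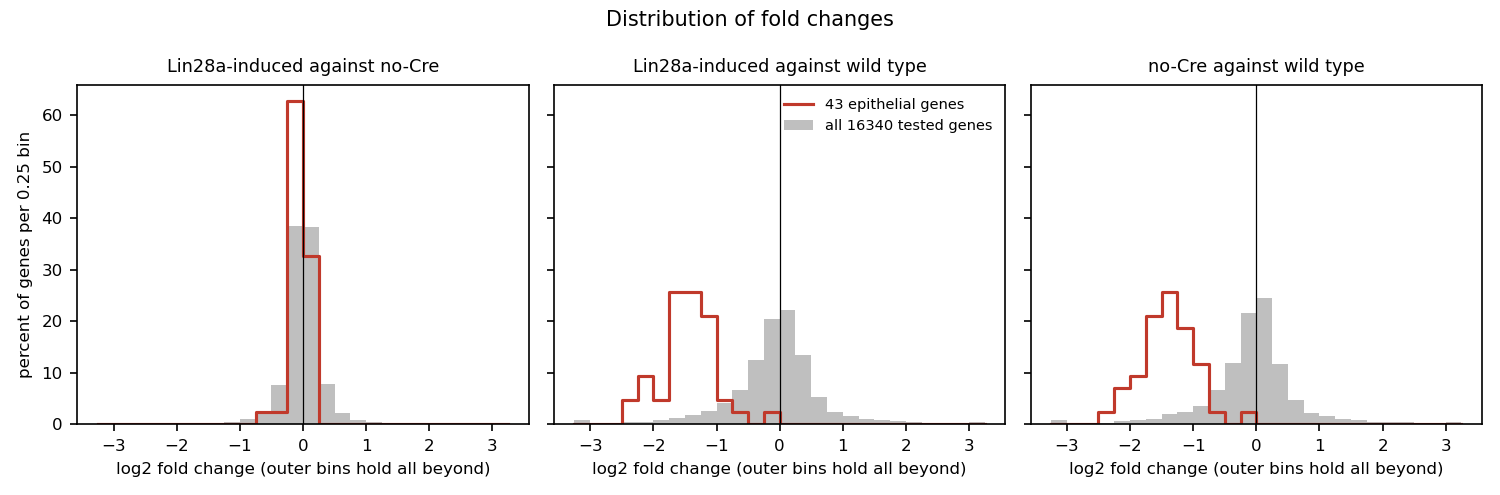
Percent of genes per bin of 0.25 in log2 fold change, for the 43 tested epithelial genes (line) and all 16340 tested genes (filled), in the 3 comparisons. Both distributions peak in the bins next to 0 for Lin28a-induced against no-Cre, and against wild type the epithelial genes centre on -1.42 and -1.39.

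A further list of 65 epithelial genes that are not among the 44, of which 61 were tested, was described the same way. Against no-Cre 1 of 61 was higher and 0 lower, the 1 being Cxadr, a tight junction adhesion protein (0.24 ± 0.05, adjusted p = 0.0233). That count is near the share over all tested genes, 1.76% higher and 1.15% lower. With Lin28a induced 51 were lower and 3 higher than wild type (median -1.16), and without Cre 48 lower and 2 higher (median -1.12). Over all genes 25.0% were lower and 24.3% higher with Lin28a induced, and 21.4% and 21.0% without Cre. Among the lowest p-values were those of Wnt4, an ectodermal Wnt ligand (-2.04 ± 0.07 and -1.80 ± 0.08 with Lin28a induced and without Cre), Dst, a plakin of hemidesmosomes (-1.71 ± 0.09 and -1.64 ± 0.10), Marveld2, or tricellulin (-1.58 ± 0.11 and -1.53 ± 0.12), Ppl, or periplakin (-1.97 ± 0.13 and -2.04 ± 0.14), and Plec, or plectin (-0.78 ± 0.06 and -0.79 ± 0.06). Higher than wild type in both were Cxadr (0.56 ± 0.05 and 0.32 ± 0.06) and Cobl, an actin nucleator (0.37 ± 0.14 and 0.79 ± 0.15), and with Lin28a induced also Klf4 (0.47 ± 0.19). The list summed to 2095 to 2166 CPM in the Lin28a-induced, 2089.7 to 2119 CPM in the no-Cre and 3461 to 3898 CPM in the wild-type libraries.

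In the wild-type and Lin28a-induced groups, single libraries were at the top or bottom for most members. Wild-type replicate 2 was the highest of the 3 wild-type libraries for 35 of 43 members (81.4%) and for 38.8% of all genes. Wild-type replicate 1 was the lowest for 26 (60.5%), against 29.2% of all genes. Among the Lin28a-induced libraries replicate 2 was the highest for 25 (58.1%, against 28.1% of all genes) and replicate 3 the lowest for 22 (51.2%, against 26.1%). In the no-Cre group replicate 8 was the lowest for 21 (48.8%, against 35.6%). The median coefficient of variation of the members was 10.6%, 7.88% and 15.5% in the Lin28a-induced, no-Cre and wild-type groups, against 7.41%, 6.20% and 12.4% over all genes. Without wild-type replicate 2, 42 members were still lower in each comparison with wild type, and the medians were -1.28 (Lin28a-induced) and -1.27 (no-Cre). Of all 10 libraries, wild-type replicate 2 had the lowest sums of notochord and floor plate (154 CPM) and of ridge markers (606 CPM). It was also lowest for neural tube (234 CPM), endothelial (68.9 CPM) and epithelium-to-mesenchyme transition genes (1358 CPM). Its sum of mitochondrially encoded transcripts was the highest (26434 CPM).

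Markers of other tissues that a tail bud sample can hold were set beside these values, and their counts of calls stand against 24.3% higher and 25.0% lower over all genes with Lin28a induced, and 21.0% and 21.4% without Cre. Gut endoderm markers summed to 22.6 to 29.0 CPM in the Lin28a-induced, 26.1 to 35.6 CPM in the no-Cre and 12.3 to 15.3 CPM in the wild-type libraries, and 6 and 5 of 9 were higher than wild type. Notochord and floor plate markers summed to 370.4 to 502 CPM in the Lin28a-induced, 347 to 367 CPM in the no-Cre and 154 to 374 CPM in the wild-type libraries, with 3 higher and 1 lower of 8 with Lin28a induced and 4 higher and 1 lower without Cre. Neural tube markers summed to 349.6 to 371 CPM in the Lin28a-induced, 406 to 436 CPM in the no-Cre and 234 to 278 CPM in the wild-type libraries, with 2 higher and 2 lower of 6, then 3 higher and 1 lower. Mesenchyme markers summed to 1162 to 1304 CPM in the Lin28a-induced, 1389 to 1519.8 CPM in the no-Cre and 1129 to 1294 CPM in the wild-type libraries, with 2 higher and 5 lower of 11, then 3 higher and 4 lower. Macrophage markers summed to 73.0 to 95.9 CPM in the Lin28a-induced, 63.1 to 79.2 CPM in the no-Cre and 33.2 to 58.6 CPM in the wild-type libraries, with 6 higher and 0 lower of 8, then 3 higher and 1 lower. Red blood cell genes summed to 3664 to 6017 CPM in the Lin28a-induced, 5516 to 9359 CPM in the no-Cre and 2593 to 7455 CPM in the wild-type libraries, with 4 of 8 higher in each. Sums of the mesenchyme list with Lin28a induced, and of the notochord and red blood cell lists in both groups, overlapped wild type. With Lin28a induced, against no-Cre, the lists held 3 calls, all lower: Sox3 of the neural tube list (-0.92 ± 0.18, adjusted p = 0.0138) and Pdgfra (-0.24 ± 0.06, adjusted p = 0.0417) and Foxc1 (-0.38 ± 0.09, adjusted p = 0.0445) of the mesenchyme list. In this comparison 1.76% of all tested genes were called higher and 1.15% lower. No gene of these lists was at 0 in all libraries. Their part in the lower epithelial levels, like that of the mitochondrially encoded transcripts, was not tested.

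**Figure D4:**
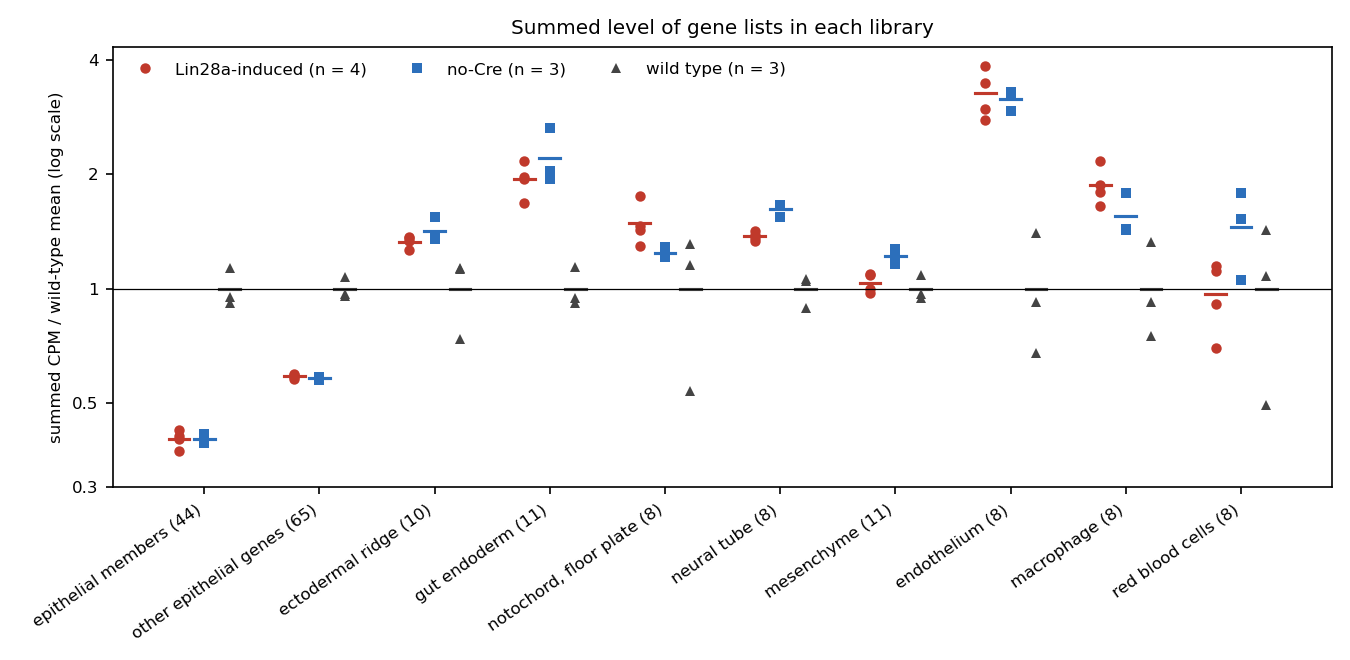
Summed level of each gene list in each library, divided by the wild-type mean of that list (log scale), with lists along the x axis, the number of genes in brackets, circles for Lin28a-induced, squares for no-Cre and triangles for wild-type libraries, and bars for group means. The 44 epithelial genes and the 65 further epithelial genes lie below the wild-type libraries in every transgenic library. The endothelial, ectodermal ridge, gut endoderm, neural tube and macrophage sums lie above the wild-type libraries in every transgenic library. The mitochondrially encoded transcripts, also lower in every transgenic library, are not drawn.

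The ventral ectodermal ridge was followed separately, since it is the signalling part of the tail's surface ectoderm. Of 9 tested ridge genes 6 were lower and 2 higher than wild type in both comparisons. Over all genes the shares were 25.0% lower and 24.3% higher with Lin28a induced, and 21.4% and 21.0% without Cre. The lower ones were Dlx3 (-2.07 ± 0.18 and -1.61 ± 0.19 with Lin28a induced and without Cre), Dlx5 (-0.86 ± 0.16 and -1.10 ± 0.18), Dlx6 (-1.47 ± 0.16 and -1.34 ± 0.18), Msx2 (-1.10 ± 0.19 and -1.16 ± 0.21), Sp6 (-1.73 ± 0.45 and -2.05 ± 0.51) and Bmp4 (-0.59 ± 0.12 and -0.58 ± 0.13), all transcription factors but Bmp4, a secreted ligand. Higher were the ridge factor Sp8 (0.50 ± 0.12 and 0.40 ± 0.13) and the ligand Wnt5a (0.51 ± 0.15 and 0.63 ± 0.16), which tail bud mesenchyme also expresses. For the other listed genes, the lower ones included, bulk tissue cannot separate expression in the ridge from expression outside it. The remaining tested gene, the ligand Fgf8, had a positive log2 fold change and was not called in either comparison. En1, also on the list, had too few counts to test (at most 5 in a library). The summed ridge level, to which Wnt5a and the other genes contribute unequally, was 1040.1 to 1124 CPM in the Lin28a-induced, 1109 to 1271 CPM in the no-Cre and 606 to 936 CPM in the wild-type libraries, so its direction differs from that of most of its genes. With Lin28a induced, against no-Cre, 0 of 9 passed edgeR's test, and 1 had an unadjusted p under 0.05, beside 2.91% and 16.3% of all tested genes.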

How the data were processed

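The authors deposited raw read counts per gene symbol for 10 libraries. The submitters' processing notes name STAR 2.3.1z4, featureCounts, DESeq2 and the mm10 build, without the role of each. Not given in the sources used here are the annotation release and whether featureCounts used strand or reads that align more than once. After filterByExpr and TMM scaling, edgeR 4.0.16 fitted its robust quasi-likelihood model to the counts, all 10 libraries in 1 fit with 1 coefficient per group. P-values were adjusted by Benjamini-Hochberg over the 16340 tested genes, and the threshold was 0.05. Every adjusted p in the text is from this fit. The standard error of a log2 fold change was its size over the square root of F, and values after ± are such standard errors unless SD is written. CPM use TMM-scaled library sizes. Library values are given in the order of the replicate numbers.

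Exon lengths, coordinates and 3′ untranslated regions came from GENCODE M21 (GRCm38), which 35654 of the 38720 symbols matched, all 44 members among them. Members, gene lists and tests were chosen with earlier results of these data known. Full values are given for members past the threshold (the 12 with the smallest adjusted p where more passed, as against wild type) and for the member of each role with the highest level per kb, averaged over the 3 groups. Against no-Cre no member passed, so only these role members come from the rule. Also given is Krt17, the 1 member with an unadjusted p under 0.05 between the Lin28a-induced and no-Cre groups, which the rule did not name. Nor did it name, for this comparison, Dsp, Cdh1, Trp63 and Grhl1, or Dsg2, Pkp1 and Spint1, which have a let-7 seed match. Estimates and adjusted p-values are given for these too. Other epithelial genes are named for the 6 smallest p, of which 1 is not reported here. Replicates 2 and 3 of the Lin28a-induced and wild-type groups share numbers, and the labels do not say that the numbers pair libraries. Scripts were tested on simulated data. R 4.3.3, limma 3.58.1, DESeq2 1.42.0, Python 3.11.15, pandas 2.3.3, numpy 2.4.6 and matplotlib 3.10.9 were used.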

Additional observations from a re-analysis of the deposited data

Results flagged for a closer look

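Krt5 measured 41.6 CPM in Lin28a-induced replicate 5, while the next of the 4 libraries was at 32.6 CPM. The gap was 0.882 of the group's whole range, more than Dixon's 95% limit allows. Of the 43 tested members this was the 1 flagged in the group of 4, and chance flags about 1 in 20.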

How the results depend on the processing

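For Lin28a-induced against no-Cre, 0 members were called higher and 0 lower under all 15 alternatives: limma-voom, DESeq2, edgeR with DESeq2's size factors, genes unfiltered or filtered at 1 CPM in at least 3 libraries, a fit of the compared groups alone, totals without globin and mitochondrially encoded genes, a spread that is not robust, and leaving out each library in turn. The number lower than wild type was 42 or 43 over 17 alternatives with Lin28a induced (43 where Dsg3 also entered) and 42 in all 14 without Cre. The members' median ran over -1.499 to -1.28 and -1.45 to -1.27 against wild type and -0.08 to 0.01 against no-Cre. It moved most without wild-type replicate 2, to -1.28 and -1.27. No named member crossed the threshold or reversed once called.

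With the shared replicate numbers 2 and 3 as a block (4 libraries), 42 members were lower and 0 higher than wild type, with a median of -1.45. Deviations of same-numbered libraries correlated at -0.02 and -0.10, and those of differently numbered ones at -0.02 and 0.12. So few libraries cannot decide whether the numbers pair them. The same 4 libraries without the block were fitted as an alternative chosen after the data were seen. The other comparisons share no replicate numbers. The intervals against no-Cre reached beyond 0.5 in size for Krt15, Krt17, Pkp1, Lamb3, Cldn3 and Grhl1. A change that lies inside its interval could have gone uncalled with these libraries. An interval is not the limit of detection, since a call needed an adjusted p under 0.05. The interval of Krt17, -1.30 to -0.09, left out 0, and Krt17 was not called (adjusted p = 0.237, edgeR).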

Other observations

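Genes that act in the transition of epithelium to mesenchyme did not move in 1 direction against wild type. Of 9 tested, 5 were higher and 2 lower in both transgenic groups. Over all genes the shares were 24.3% higher and 25.0% lower with Lin28a induced, and 21.0% and 21.4% without Cre. Higher were the repressors of Cdh1 transcription Zeb1 (0.48 ± 0.09 and 0.58 ± 0.10 with Lin28a induced and without Cre), Zeb2 (0.56 ± 0.12 and 0.70 ± 0.13) and Snai1 (0.65 ± 0.18 and 0.63 ± 0.19), with N-cadherin (Cdh2, 0.79 ± 0.20 and 0.74 ± 0.21) and fibronectin (Fn1, 0.34 ± 0.12 and 0.65 ± 0.13). Lower were Snai2 (-1.05 ± 0.11 and -1.03 ± 0.12), which basal epidermis also expresses, and Cdh11 (-0.42 ± 0.07 and -0.47 ± 0.07). With Lin28a induced, against no-Cre, 0 of the 9 passed edgeR's test, and 2 had an unadjusted p under 0.05, beside 2.91% and 16.3% of all tested genes. These 9 genes are outside the 44 epithelial genes.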
